A study of Rattus norvegicus with 30 samples.

Results

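The comparison of CBD with its vehicle, ethanol (EtOH), after 24 h in rat hippocampal neurons was analysed pair by pair over the protein-coding genes. Of the 20065 genes listed for it, 18831 were protein-coding, and of these 13979 had enough reads to be tested. The neurons came from wild-type Wistar rat embryos at embryonic day 18 and had been grown for 7 days before treatment. CBD (cannabidiol, a non-intoxicating cannabinoid) was given at 6 µM, and the vehicle made up 0.2% of the medium in every culture of both groups. There were 3 libraries of poly(A)+ RNA per group, 6 of the 30 in the study, from an experiment that was repeated 3 times, and libraries that carried the same replicate number were taken as a pair. No other agent was given to either group, and the sources used here do not say how many embryos were pooled for a culture.

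Depth was similar across the 6 libraries, with between 16210820 and 21642955 reads on genes. The cultures held glia as well as neurons. The 12 neuronal markers summed to between 5834 and 7226 CPM (reads scaled to the library total) and the 12 astrocyte markers to between 2398 and 5309, with a lower astrocyte sum in the libraries of pair 3 (2398 with CBD and 3154 with EtOH) than in the other 4. The 12 microglial markers summed to between 3.51 and 9.62 CPM, and the endothelial marker Cdh5 was at 0 in all 6 libraries.

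Several gene systems organise what follows. Metallothioneins are small cysteine-rich proteins that bind zinc and copper. Their genes are switched on by the zinc-sensing transcription factor MTF-1, which binds metal response elements, and the same factor acts on zinc exporters of the Slc30 family, while Slc39 proteins carry zinc into the cytosol. Nrf2, encoded by Nfe2l2, is held back by Keap1 and drives antioxidant genes such as Hmox1 (heme oxygenase 1) when it is released. ATF4 is made when translation is slowed by amino acid shortage, heme shortage or stress of the endoplasmic reticulum, and it raises amino acid transporters, aminoacyl-tRNA synthetases and the regulators Trib3, Atf3 and Ddit3. GABAergic neurons, the inhibitory cells of the hippocampus, make their transmitter with the glutamate decarboxylases Gad1 and Gad2.

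The promoters of the zinc genes are shown because Mt1, Mt2A and Slc30a2 were among the 4 genes that rose by more than 1 on the log2 scale. Each line gives the 250 bases before the transcription start in the RefSeq table on build GRCr8, 5′ to 3′ in the direction of transcription, and capitals mark the core of a metal response element, searched as TGCACNC or TGCGCNC on both strands, with overlapping matches counted separately. Mt1 (chr19:10832976-10833225, minus strand) held 6 matches, Mt2A (chr19:10838709-10838958, minus strand) 4, Mt3 (chr19:10856081-10856330, minus strand) 3, Slc30a1 (chr13:106021769-106022018, plus strand) 2 and the first of the Slc30a2 starts (chr5:151843201-151843450, plus strand) 2.
Mt1: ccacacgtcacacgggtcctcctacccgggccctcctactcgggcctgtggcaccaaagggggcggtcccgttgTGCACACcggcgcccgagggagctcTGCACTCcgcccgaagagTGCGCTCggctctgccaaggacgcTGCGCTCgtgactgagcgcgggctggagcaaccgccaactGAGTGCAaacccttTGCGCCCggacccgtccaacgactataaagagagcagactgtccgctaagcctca
Mt2A: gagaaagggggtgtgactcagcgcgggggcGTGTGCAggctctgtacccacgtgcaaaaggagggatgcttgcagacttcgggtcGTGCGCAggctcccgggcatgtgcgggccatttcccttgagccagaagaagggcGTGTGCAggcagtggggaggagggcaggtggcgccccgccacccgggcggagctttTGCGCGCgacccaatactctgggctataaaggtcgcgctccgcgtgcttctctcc
Mt3: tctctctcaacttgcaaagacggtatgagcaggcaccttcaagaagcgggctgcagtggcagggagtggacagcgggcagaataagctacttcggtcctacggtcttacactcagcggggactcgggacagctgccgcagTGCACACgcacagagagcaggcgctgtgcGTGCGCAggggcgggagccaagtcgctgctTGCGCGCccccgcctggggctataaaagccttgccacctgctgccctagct
Slc30a1: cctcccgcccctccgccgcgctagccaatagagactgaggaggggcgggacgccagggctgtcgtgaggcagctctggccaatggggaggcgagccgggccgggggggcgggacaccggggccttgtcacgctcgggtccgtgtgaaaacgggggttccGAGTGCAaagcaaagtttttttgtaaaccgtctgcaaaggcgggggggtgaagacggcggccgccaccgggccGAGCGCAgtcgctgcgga
Slc30a2: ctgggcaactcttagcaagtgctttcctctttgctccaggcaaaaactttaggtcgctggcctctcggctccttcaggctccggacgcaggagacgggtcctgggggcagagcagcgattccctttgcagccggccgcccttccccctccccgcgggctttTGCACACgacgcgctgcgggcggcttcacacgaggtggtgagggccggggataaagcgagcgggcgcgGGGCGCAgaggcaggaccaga
At least 1 match stood in 20.6% of all 33469 promoters in the table, at least 2 in 4.9% and at least 4 in 0.266%. Among the metallothionein and zinc transporter genes, 13 of 25 promoters held a match. The Slc39a10 promoter and the other Slc30a2 start held 0. A match is only a run of letters and was not tested for binding.

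Few genes were called between CBD and EtOH when the pairs were kept, which does not show that few changed. Of the 13979 protein-coding genes tested, 71 were called at an adjusted p under 0.05 (0.508%), of which 15 rose (0.107%) and 56 fell (0.401%). All 71 had the same sign in the 3 pairs, a trait that a paired test favours and that 43.1% of all genes tested had. Of the 71, 64 had no overlap between the 3 CBD and the 3 EtOH libraries, which held for 16.0% of all genes tested. In size, 4 rose by more than 1 on the log2 scale and 11 fell by more than 1. The adjusted p was 0.0487 for the last gene called, Fam81a, and 0.0505 for the next, Htr2c. When the pairs were ignored, 16 genes were called (0.114%; 0.0429% higher and 0.0715% lower), and all 16 were among the 71. Leaving out pair 1 gave 1372 calls (9.77%), with 5.16% of genes higher and 4.61% lower. Leaving out pair 2 gave 42 (0.296%), with 0.0564% higher and 0.240% lower, and leaving out pair 3 gave 346 (2.48%), with 0.910% higher and 1.57% lower. With the pairs, edgeR called 0.465% of genes (0.107% higher, 0.358% lower) and DESeq2 2.18% of those it tested (0.810% higher, 1.37% lower). Of the 71 genes, 34 were called whichever pair was left out. With a pair left out, little residual spread is left per gene, so such calls lean on the spread borrowed from other genes. Limma with the spread from all 30 libraries called 1785 genes, 820 higher and 965 lower. An unadjusted p under 0.05 was reached by 2657 of the 13979 genes in the paired fit.

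**Figure D1:**
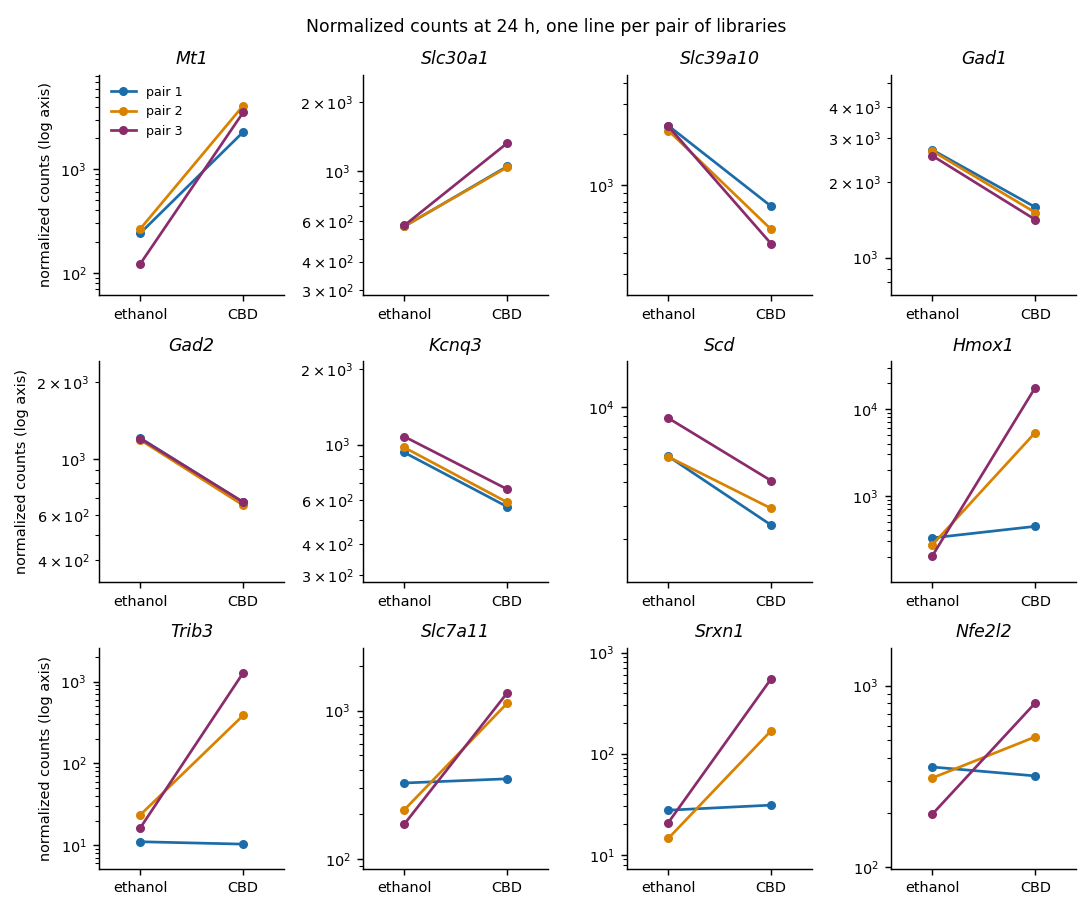
Normalized counts (log axis) of 12 genes in the EtOH and CBD libraries at 24 h, with a line for each of the 3 pairs. Mt1, Slc30a1, Slc39a10, Gad1, Gad2, Kcnq3 and Scd moved alike in the 3 pairs, whereas Hmox1, Trib3, Slc7a11, Srxn1 and Nfe2l2 were nearly level in pair 1 and higher with CBD in pairs 2 and 3.

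Of the metallothionein and zinc exporter genes, Mt1, Mt2A, Slc30a1 and Slc30a2 were higher with CBD in every pair. Mt1 (ENSRNOG00000025764, chr19:10826032-10827049 on mRatBN7.2), a metallothionein, had 2285, 4102 and 3533 normalized counts in CBD libraries 1, 2 and 3 and 242, 266 and 122 in the EtOH libraries. The lowest CBD value thus lay far above the highest EtOH value. The log2 difference was 3.24, 3.94 and 4.84 in the 3 pairs and 4.01 ± 0.25 (SE, n = 3 pairs) on average, 16.1-fold, with an adjusted p of 0.00208. Mt2A, the other widely expressed metallothionein, had 5724, 7999 and 6074 normalized counts with CBD and 1242, 1179 and 527 with EtOH. It rose by 2.83 ± 0.21 on the log2 scale (adjusted p = 0.00318), again with no overlap. With a robust estimate of the spread the calls of Mt1 and Mt2A were lost (adjusted p = 0.098 and 0.102). Mt1-ps3, a pseudogene by its name that the table lists as protein-coding, went from 32.6 ± 11.9 to 454 ± 167 normalized counts (SD, n = 3), but it may share reads with Mt1 and its own level is uncertain.

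Among the zinc exporters, Slc30a1, the exporter of the cell membrane, had 1046, 1037 and 1323 normalized counts with CBD and 571, 572 and 576 with EtOH. The EtOH values were nearly identical and the groups were well apart. The log2 difference was 0.98 ± 0.09, 1.97-fold (adjusted p = 0.00948). Slc30a2, which moves zinc into vesicles, was low in the EtOH libraries, at 7.35, 20.1 and 9.95 normalized counts, and reached 69.9, 134 and 291 with CBD. It rose by 3.50 ± 0.38 on the log2 scale (adjusted p = 0.0152, and 0.0972 when the pairs were ignored). Slc39a10, a zinc importer, moved the other way, with 753, 551 and 453 normalized counts with CBD and 2241, 2100 and 2222 with EtOH. It fell by 1.93 ± 0.13 on the log2 scale, 3.81-fold lower (adjusted p = 0.00208).

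Of the 24 metallothionein and zinc transporter genes tested, 4 rose, 1 fell and 19 were not called, and the median log2 difference of the list was 0.04 against -0.01 over all genes tested. The shares over all genes were 0.107% higher and 0.401% lower. Mt3, the metallothionein typical of brain, stood at -0.41 ± 0.13 (adjusted p = 0.171), although its promoter also holds 3 matches. Mtf1 itself was at -0.10 ± 0.09 (adjusted p = 0.575), and the 7 other Slc30a genes tested, among them the synaptic vesicle exporter Slc30a3 at -0.54 ± 0.16, lay between -0.54 and 0.24 with no call. The counts for the zinc list were the same under the count models: edgeR and DESeq2, each with the pairs, called 4 higher and 1 lower. Without pair 1 the list held 4 increases and 4 decreases, where 5.16% of all genes rose and 4.61% fell.

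The enzymes of GABA synthesis fell by nearly the same amount in each pair. Gad1 had 1590, 1514 and 1418 normalized counts with CBD and 2692, 2663 and 2550 with EtOH. Gad2 had 675, 657 and 676 with CBD and 1205, 1185 and 1200 with EtOH. In both genes the libraries of a group lay close together and the groups were far apart. The log2 difference was -0.81 ± 0.06 for Gad1 (adjusted p = 0.00495) and -0.84 ± 0.07 for Gad2 (adjusted p = 0.00608), and for Gad2 the 3 pairs spanned only -0.85 to -0.83. In bulk RNA, fewer GABAergic cells and less of these transcripts per cell cannot be told apart.

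The other GABAergic markers gave less. Of the 13 tested, these 2 fell, 11 were not called and 12 were lower on average, with a list median of -0.44 against -0.01 over all genes. The share that fell over all genes tested was 0.401%. Without pairs 1, 2 and 3 the list held 5, 3 and 5 decreases, against 4.61%, 0.240% and 1.57% of all genes tested. Slc32a1, the vesicular GABA transporter that defines these neurons, was at -0.22 (pairs -0.18, -0.19 and -0.30, adjusted p = 0.158). The summed markers ranged from 970 to 1097 CPM with CBD and from 1162 to 1439 with EtOH. The 9 glutamatergic markers had a median of -0.24 and the 12 neuronal markers one of -0.19. All 12 neuronal markers were lower, and 6 had an unadjusted p under 0.05. Limma with all pairs and edgeR called none. DESeq2 with the pairs called 3 lower, against 1.37% of all genes it tested. Limma called 6 lower with the spread from all 30 libraries (965 of all 13979 genes) and 1 with robust moderation (93 of all genes). Without pairs 1, 2 and 3 it called 3, 0 and 2 lower, against the shares of all genes above. An unadjusted p under 0.05 was reached by 2657 of all 13979 genes tested.

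Potassium channels made up the called genes of the ion channel list. Of 54 sodium, calcium and potassium channel genes tested, 4 fell, none rose and 50 were not called, with a list median of -0.14. Among all genes tested, 0.401% fell and 0.107% rose. Kcnq3, a subunit of the M-current channel, had 564, 587 and 662 normalized counts with CBD and 929, 973 and 1076 with EtOH. It fell by 0.72 ± 0.07 on the log2 scale (adjusted p = 0.0115), with pairs between -0.73 and -0.70. Kcnn1, a calcium-activated channel, fell by 0.99 ± 0.10, Kcnc2, a fast-spiking channel of the Kv3 family, by 1.01 ± 0.12, and Kcna1, the Kv1.1 channel, by 0.60 ± 0.07. Without the pairing, Kcnn1 and Kcnc2 kept their calls and Kcnq3 and Kcna1 did not (adjusted p = 0.0734 and 0.319). Kcna1 also missed the threshold without pair 2 (adjusted p = 0.0502). In the list, 12, 3 and 8 genes fell and 1, 0 and 2 rose without pairs 1, 2 and 3. Over all genes tested, 4.61%, 0.240% and 1.57% fell and 5.16%, 0.0564% and 0.910% rose. Outside the list, the potassium channel subunit Kcng1 fell by 0.74 and Atp2b4 and Atp2b2, plasma membrane calcium pumps, fell by 0.89 and 0.52.

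The list of immediate early and activity genes, which are linked to synaptic activity, had the most calls. Of 33 tested, 6 fell, none rose and 27 were not called, and the list median was -0.52. Over all genes tested, 0.401% fell and 0.107% rose. Nr4a3, a nuclear receptor, had 2325, 2198 and 2314 normalized counts with CBD and 3842, 3472 and 3856 with EtOH. It fell by 0.71 ± 0.06 on the log2 scale (adjusted p = 0.00844), the same to within 0.08 between pairs. Arc, which controls AMPA receptor endocytosis, had 59.6, 33.3 and 47.6 normalized counts with CBD and 182, 106 and 129 with EtOH. It fell by 1.55 ± 0.16, and Rgs4, an inhibitor of G protein signalling, fell by 0.87 ± 0.08. Egr3, Egr4 and Rgs2 fell by 0.88, 1.47 and 0.80. Of these 6, only Nr4a3 was called when the pairs were ignored. Leaving out pair 1 gave 10 decreases and 3 increases in the list, leaving out pair 2 gave 7 decreases and leaving out pair 3 gave 16. The shares of all genes that fell were then 4.61%, 0.240% and 1.57%, and 5.16% rose without pair 1.

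Of the 33 immediate early and activity genes, 20 had one sign in all 3 pairs, and others did not. Fos had log2 differences of -1.39, -0.005 and 1.11 in pairs 1, 2 and 3, and Vgf had -2.29, -1.61 and 0.85. Egr1 had -1.34, -0.70 and 0.69. In pair 1, 12 of the 33 genes lay below -1, in pair 2 it was 8 and in pair 3 it was 4, against 0.701%, 1.22% and 2.13% of all genes tested. Fos, Vgf and Egr1 were picked out after their values had been seen.

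Of the 17 genes of fatty acid synthesis and desaturation, Scd alone fell, 16 were not called and the list median was -0.04. Over all genes tested, 0.401% fell. Without pairs 1, 2 and 3 the list held 2, 1 and 2 decreases, against 4.61%, 0.240% and 1.57% of all genes. Scd, the stearoyl-CoA desaturase, had 2373, 2909 and 4080 normalized counts with CBD and 5494, 5462 and 8764 with EtOH. Both libraries of pair 3 were higher than the others of their group, and within each pair CBD was lower. It fell by 1.07 ± 0.08 on the log2 scale (adjusted p = 0.00318), a call that was lost without the pairing (adjusted p = 0.259). The 26 genes of sterol synthesis and uptake had a median of -0.23, with -0.39, -0.24 and -0.02 in pairs 1, 2 and 3. Acss2, an acetyl-CoA synthetase, fell by 0.66 ± 0.07 (adjusted p = 0.0115).

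Other genes were led by Fam131a, with 1072, 1070 and 1151 normalized counts with CBD and 2196, 2069 and 2355 with EtOH, which fell by 1.01 ± 0.07 on the log2 scale (adjusted p = 0.00208). Slc44a5, of the choline transporter-like family, rose from 529, 441 and 554 to 1004, 1010 and 1022 normalized counts, a log2 difference of 1.00 ± 0.09 (adjusted p = 0.00844). The LIM protein gene Csrp1 rose by 0.72 ± 0.07, Lhfpl2 by 0.71 ± 0.08, Arrdc3 of the arrestin family by 0.51 ± 0.06, Nipal3 by 0.79 ± 0.10, the growth factor receptor Egfr by 0.48 ± 0.06 and the basement membrane gene Nid2 by 0.88 ± 0.12. Among the decreases were the neuropeptide PACAP gene Adcyap1 (-1.15 ± 0.12) and the prohormone convertase Pcsk2 (-0.66 ± 0.07). Of these 10, Fam131a, Slc44a5 and Lhfpl2 were also called without the pairing. Without pair 2 the calls of Lhfpl2, Arrdc3, Nipal3, Egfr and Nid2 were lost, at adjusted p-values of 0.0562, 0.14, 0.0545, 0.161 and 0.0708.

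The 3 pairs differed in how far the CBD library stood from its EtOH library. Within a single pair, an effect of CBD cannot be told apart from other differences between the libraries. Over the 11150 genes with a mean of at least 100 normalized counts, the SD of the log2 differences was 0.20 in pair 1, 0.27 in pair 2 and 0.43 in pair 3. More than 1 in either direction was reached by 23 genes in pair 1, 79 in pair 2 and 279 in pair 3. Across these genes, which are not independent and share libraries within a pair, Pearson's r between the log2 differences was 0.74 for pairs 2 and 3, 0.40 for pairs 1 and 2 and 0.24 for pairs 1 and 3. The range over the pairs had a median of 0.26 and exceeded 2 for 55 genes, none of which was called. A paired test divides by the spread between pairs, so a gene with so wide a range could hardly be called. Among the 71 called genes, at any mean count, the largest range was 2.06. Pair 1 held the lowest difference in 51 of the 55 and pair 3 the highest in 49.

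**Figure D2:**
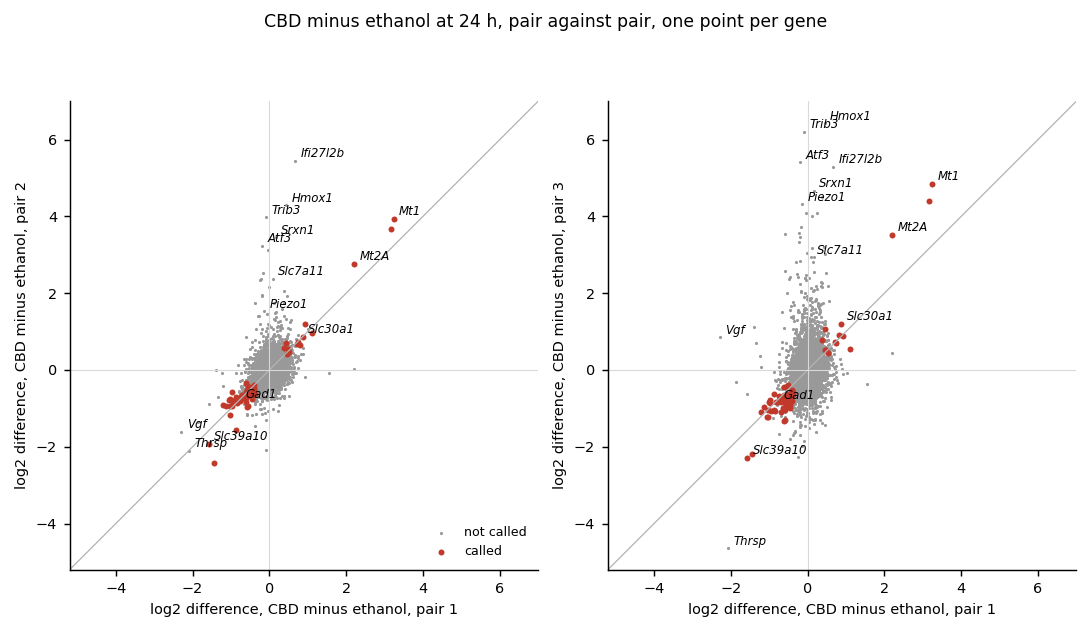
Log2 difference, CBD minus EtOH at 24 h, in pair 1 (x axis) against pair 2 (left) and pair 3 (right), for the 11150 protein-coding genes with a mean of at least 100 normalized counts; the grey line marks equality and red points are called genes. The called genes lie along the line, while Hmox1, Trib3, Atf3, Srxn1 and Piezo1 stand near 0 in pair 1 and high in pairs 2 and 3.

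Of the 55 genes with a range above 2, 14 were on the ATF4 list and 5 on the Nrf2 list. The 6 with the widest range are described here. Hmox1 (ENSRNOG00000014117, chr19:13467244-13474079 on mRatBN7.2) had 446, 5355 and 17649 normalized counts with CBD and 328, 274 and 204 with EtOH. Every CBD value lay above every EtOH value, but the first only just. The log2 differences were 0.44, 4.29 and 6.42, and the average of 3.72 ± 0.90 was not called by limma with all pairs (adjusted p = 0.122). Hmox1 was called without pair 1 (adjusted p = 2.48e-09) and without pair 3 (adjusted p = 0.032), p-values that lean on the spread of other genes. Of the 23 genes of heme and iron handling, 2, 0 and 1 rose without pairs 1, 2 and 3, against 5.16%, 0.0564% and 0.910% of all genes. DESeq2 called none of these 23 with the pairs and 1 higher without them, where 63 genes rose in all. Trib3, a pseudokinase that dampens ATF4 signalling, had 10.3, 385 and 1274 normalized counts with CBD and 11.03, 23.5 and 16.3 with EtOH. Its log2 differences were -0.09, 3.98 and 6.20 (adjusted p = 0.149), and in pair 1 it lay below its EtOH library. The stress transcription factor Atf3 had -0.19, 3.24 and 5.41, the sulfiredoxin Srxn1 0.16, 3.45 and 4.66, Ifi27l2b 0.67, 5.45 and 5.29, and the mechanosensitive channel Piezo1 -0.14, 1.52 and 4.31. These 6 were chosen for their range, so their spread is a description.

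The Nrf2 pathway as a list followed the same order of pairs. Of 36 genes tested, limma with all pairs and edgeR called none, and 17 had an unadjusted p under 0.05. Among all 13979 genes tested, 2657 had such a p. DESeq2 with the pairs called 1 higher, against 0.810% of all genes it tested. Without the pairs it called 3 higher, where 63 genes rose in all. With the spread from all 30 libraries limma called 13 higher and 1 lower, against 820 and 965 of all 13979 genes. The list median was -0.04 in pair 1, 0.26 in pair 2 and 0.42 in pair 3, against 0.00, -0.01 and -0.02 over all genes tested. Log2 differences above 1 were found for 0, 6 and 12 of the 36, against 0.780%, 1.30% and 2.98% of all genes tested. Nfe2l2, which encodes Nrf2, had 319, 523 and 803 normalized counts with CBD and 357, 311 and 196 with EtOH. Its log2 differences were -0.16, 0.75 and 2.03. The quinone reductase Nqo1 had -0.34, 0.35 and 1.69, Gstp1, a glutathione transferase, 0.11, 0.93 and 1.34, the cystine transporter Slc7a11 0.09, 2.38 and 2.93, Osgin1 0.62, 2.97 and 4.03, Txnrd1, a thioredoxin reductase, 0.05, 0.56 and 1.17, and Gclc, of glutathione synthesis, -0.13, 0.40 and 0.75. None of the 7 was called (adjusted p from 0.109 to 0.370). The smallest p of the list belonged to the efflux pump Abcc4, with 0.54, 1.25 and 2.18 (adjusted p = 0.0858).

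The amino acid response under ATF4 had the widest gap between pair medians of the 31 lists. Of 42 genes tested, limma with all pairs and edgeR called none, and 31 had an unadjusted p under 0.05. Such a p was reached by 2657 of all 13979 genes tested. DESeq2 with the pairs called 3 (2 higher, 1 lower), against 0.810% higher and 1.37% lower of all genes it tested. With the spread from all 30 libraries limma called 29 higher and 1 lower, against 820 and 965 of all 13979 genes. The list median was -0.08 in pair 1, 0.62 in pair 2 and 1.32 in pair 3. In pair 1, 11 of the 42 genes were higher with CBD and none was above 1. In pairs 2 and 3, 41 were higher, and 18 and 28 were above 1. Over all 13979 genes tested, 6991, 6850 and 6637 were higher in pairs 1, 2 and 3, and 0.780%, 1.30% and 2.98% were above 1. In the ATF4 list 1 gene stayed lower in pairs 2 and 3. Cbs, of the transsulfuration pathway, was the exception at -0.45, -1.16 and -1.81. When pair 1 was left out, 40 of the list rose and 1 fell among the 1372 calls, and in the Nrf2 list 18 rose and 1 fell. Over all genes, 5.16% then rose and 4.61% fell. When pair 3 was left out, 4 rose and 1 fell in the ATF4 list and 3 rose in the Nrf2 list, where 0.910% of all genes rose and 1.57% fell. When pair 2 was left out, none of the ATF4 list was called and 1 rose in the Nrf2 list, where 0.0564% of all genes rose.

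The promoters of Trib3 and Chac1 (a glutathione-degrading enzyme), on build GRCr8, are given for this list because their genes moved with it, with the core letters of the C/EBP-ATF response element, TGATGNAA on either strand, in capitals. Trib3 lies at chr3:161275534-161275783 (minus strand) and Chac1 at chr3:126795881-126796130 (plus strand).
Trib3: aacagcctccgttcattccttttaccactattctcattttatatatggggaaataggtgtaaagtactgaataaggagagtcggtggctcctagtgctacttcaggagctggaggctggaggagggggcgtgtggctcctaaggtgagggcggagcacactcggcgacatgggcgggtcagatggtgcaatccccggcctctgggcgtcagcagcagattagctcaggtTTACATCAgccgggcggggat
Chac1: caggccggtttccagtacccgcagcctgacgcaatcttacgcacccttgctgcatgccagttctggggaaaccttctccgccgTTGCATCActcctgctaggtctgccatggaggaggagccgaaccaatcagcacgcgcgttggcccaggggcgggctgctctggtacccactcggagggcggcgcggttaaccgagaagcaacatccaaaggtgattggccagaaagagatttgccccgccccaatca
Each held 1 match. Of 43 promoters of the ATF4 list, 11 held at least 1, against 3.4% of all promoters. Chac1 had log2 differences of -0.31, 1.395 and 2.80.

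**Figure D3:**
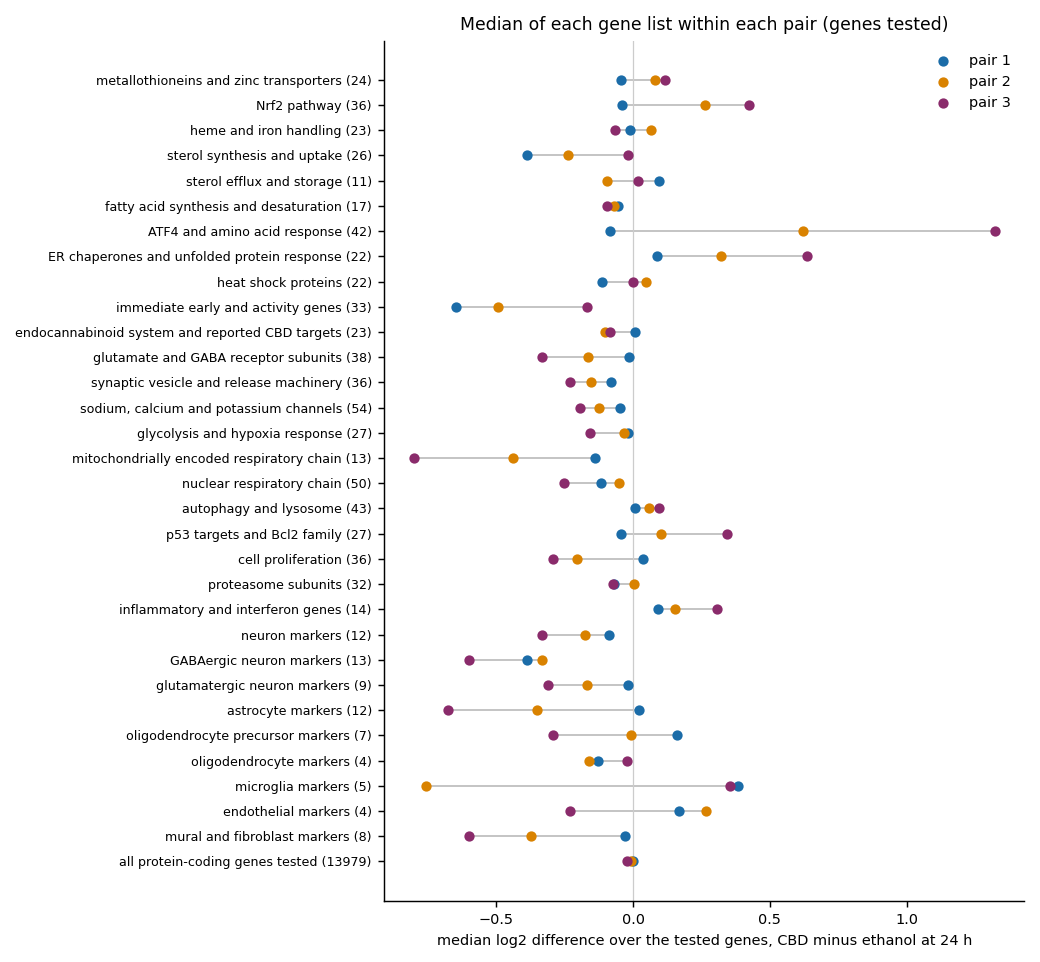
Median log2 difference, CBD minus EtOH at 24 h, over the tested members of each of 31 gene lists and over all protein-coding genes, with a point for each of the 3 pairs and the number of genes tested in brackets. The ATF4 list runs from -0.08 in pair 1 to 1.32 in pair 3, while the median over all genes stays between -0.02 and 0.00.

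Chaperones of the endoplasmic reticulum leaned the same way with smaller steps. All 22 tested were higher on average, and the list median was 0.09, 0.32 and 0.64 in pairs 1, 2 and 3. Limma with all pairs and edgeR called none, and 17 had an unadjusted p under 0.05. Over all 13979 genes tested, 2657 had such a p. DESeq2 with the pairs called 6 higher, against 0.810% of all genes it tested. Limma called 2 higher with robust moderation (36 of all genes) and 13 with the spread from all 30 libraries (820 of all genes). It called 15, 0 and 4 without pairs 1, 2 and 3, all higher. The shares of all genes called higher without pairs 1, 2 and 3 were 5.16%, 0.0564% and 0.910%. Sdf2l1 came closest, at 0.75 ± 0.12 (adjusted p = 0.0565). The 13 mitochondrially encoded respiratory chain genes were all lower, with medians of -0.14, -0.44 and -0.80. Limma with all pairs and edgeR called none, and 11 had an unadjusted p under 0.05. DESeq2 with the pairs called 9 lower, against 1.37% of all genes it tested. Limma called 11 lower with the spread from all 30 libraries (965 of all genes). Without pairs 1, 2 and 3 it called 4, 0 and 1 lower, against 4.61%, 0.240% and 1.57% of all genes. Mitochondrially encoded transcripts made up 5.37%, 4.22% and 2.92% of the reads in CBD libraries 1, 2 and 3 and 5.72%, 5.33% and 4.62% in the EtOH libraries. The astrocyte markers had medians of 0.02, -0.35 and -0.68, and their sum was 3154 CPM with EtOH and 2398 with CBD in pair 3, against 5022 and 5293 in pair 1. The part of these shifts in the differences between pairs was not tested.

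In all, 25 of the 31 lists held no gene called by limma with all pairs. Over their 543 tested genes edgeR with the pairs also called none, DESeq2 with the pairs called 34 and 190 had an unadjusted p under 0.05. Over all genes, 2657 of 13979 had such a p, and DESeq2 with the pairs called 2.18% of those it tested. The median of the 23 genes of the endocannabinoid system and reported CBD targets was -0.06, that of 38 glutamate and GABA receptor subunits -0.17, that of 36 synaptic vesicle genes -0.15 and that of 27 p53 targets and Bcl2 family members 0.17. The smallest p was that of the lipid chaperone Fabp5 in the endocannabinoid list (-0.30 ± 0.08, adjusted p = 0.127) and the vesicle protein Sv2a in the synaptic list (-0.54 ± 0.09, adjusted p = 0.0628).

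The same effect at 4 h was measured in separate libraries, with their own EtOH controls. Mt1 stood at 3.54 after 4 h, Mt2A at 2.22, Slc30a1 at 1.18, Slc30a2 at 3.50 and Slc39a10 at -1.16, all called at 4 h. The difference between the times, tested as an interaction, was 0.47 ± 0.39 for Mt1 (adjusted p = 0.674), -0.20 ± 0.12 for Slc30a1 (adjusted p = 0.564) and -0.77 ± 0.24 for Slc39a10 (adjusted p = 0.324), so a difference between the times was not detected at these errors. Of the 71 genes called at 24 h, 27 were called at 4 h with the same sign and none with the opposite one, while 330 of 14092 genes were called at 4 h (2.34%; 1.67% higher and 0.674% lower) and 1 when the pairs were ignored (0.00710%).

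The time made a called difference for 8 protein-coding genes of 14366 (0.0557%; 0.00696% higher and 0.0487% lower), all of them among the 71. The 24 h libraries enter both tests, which favours that overlap. Slc44a5 was 0.82 ± 0.11 higher in its effect at 24 h than at 4 h (adjusted p = 0.0242), with log2 differences of 0.18 at 4 h and 1.00 at 24 h. Scd went from -0.27 to -1.07, Fam131a from -0.24 to -1.01 and Hivep2, a zinc finger transcription factor, from -0.01 to -0.68. Kcnq3, with 4 h pairs between -0.07 and 0.06, stood at -0.72 at 24 h. Without pair 2 the call of Hivep2 at 24 h was lost (adjusted p = 0.0502). Kcnn1 and the G protein Rasd2 had differences of -0.93 and -0.73. For Gad1 and Gad2, at -0.18 and -0.11 after 4 h, the difference was -0.63 ± 0.13 (adjusted p = 0.14) and -0.72 ± 0.14 (adjusted p = 0.123). When the pairs were ignored, limma and edgeR called no gene for the time difference and DESeq2 called 17, and 621 of 14366 genes had an unadjusted p under 0.05 by limma. With the pairs kept, leaving out pair 1 gave 2 calls, none of them among the 8, leaving out pair 2 gave none (680 genes at an unadjusted p under 0.05), and leaving out pair 3 gave 6, of which 3 were among the 8.

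Pair 1 was also the lowest for the stress genes at 4 h. Hmox1 had log2 differences of 0.52, 1.87 and 2.38 at 4 h in pairs 1, 2 and 3, Trib3 had -0.32, 2.53 and 2.60, and Chac1 had -0.19, 2.05 and 2.14. Mt1 had 2.63, 4.07 and 3.90. The ATF4 list had medians of -0.01, 0.37 and 0.42, and 20 of its 42 genes rose at 4 h, against 1.67% of all genes tested. At 24 h with DMF (dimethyl fumarate, an electrophile that releases Nrf2), Hmox1 had 2.198, 2.65 and 4.41 and Trib3 1.85, 2.93 and 3.91 against DMSO.

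**Figure D4:**
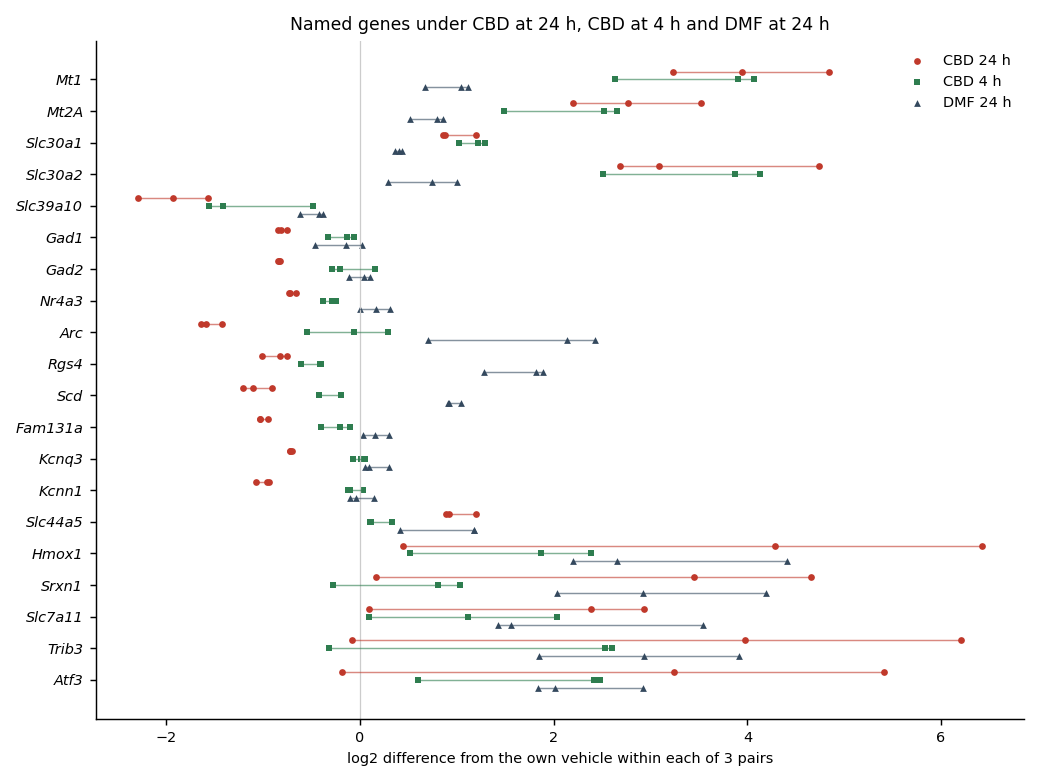
Log2 differences from the own vehicle within each of 3 pairs, for 20 genes under CBD at 24 h (circles), CBD at 4 h (squares) and DMF at 24 h (triangles). Mt1 lies between 3.24 and 4.84 with CBD at 24 h and between 0.67 and 1.11 with DMF, and Hmox1 runs from 0.44 to 6.42 with CBD at 24 h and from 2.198 to 4.41 with DMF.

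CBD at 6 µM in EtOH and DMF at 30 µM in DMSO differ in dose and vehicle, so each was set against its own vehicle and the 2 effects at 24 h were compared. The effects differed for 368 protein-coding genes of 14193 (2.59%), 157 with a higher (1.11%) and 211 with a lower (1.49%) value for CBD, and 45 of the 71 genes were among them. The 71 were called on CBD and EtOH libraries that also enter this test, which favours the overlap. Leaving out pair 1, 2 or 3 gave 55, 11 and 681 such genes. Mt1 and Mt2A had a larger increase with CBD at its dose. The difference was 3.06 ± 0.30 on the log2 scale for Mt1 (adjusted p = 0.000252), which rose by 0.94 with DMF, and 2.11 ± 0.25 for Mt2A. Of the 24 metallothionein and zinc transporter genes, 4 were called higher and 1 lower for CBD than for DMF. Of the 6 immediate early and activity genes that fell with CBD, Arc, Egr3 and Rgs4 rose with DMF, and Nr4a3, Egr4 and Rgs2 were not called with DMF. Rgs4 rose by 1.66 with DMF and fell with CBD, a difference of -2.53 ± 0.16 (adjusted p = 2.5e-05), and Arc rose by 1.76 with DMF, a difference of -3.31 ± 0.37 (adjusted p = 0.000774). Of the 33 immediate early and activity genes, 14 were called lower and none higher for CBD than for DMF. Scd, which rose by 0.95 with DMF, gave -2.03 ± 0.19.

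Among the other strongest differences, Lpcat1, an enzyme of phospholipid remodelling, and Rnf145, a ubiquitin ligase, rose by 1.30 and 0.94 with DMF and fell by 0.52 and 0.60 with CBD, with differences of -1.82 ± 0.12 and -1.54 ± 0.12. Their decreases with CBD were not called without pair 2 (adjusted p = 0.107 and 0.0972). Fam131a differed by -1.17 ± 0.09. The chaperone Calr fell by 0.54 with DMF and Pdia4, a disulfide isomerase, by 0.40, and the effects of CBD were higher by 0.91 ± 0.11 and 0.89 ± 0.11. Gad2, at 0.01 with DMF, differed by -0.85 ± 0.09 (adjusted p = 0.000687). In the Nrf2 list, 24 of 36 genes rose and 1 fell with DMF, where 13.0% of all genes tested were called (5.84% higher and 7.14% lower), and 5 were called lower and none higher for CBD than for DMF. For Hmox1 the difference was 0.63 ± 1.14 (adjusted p = 0.834), an error too large to rank the effects. For the 42 ATF4 genes, 1 was called lower and none higher. Slc44a5 rose by 0.92 with DMF, and its difference of 0.08 ± 0.20 was not called (adjusted p = 0.885).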

How the data were processed

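Poly(A)+ RNA of each culture was sequenced as paired reads. Per the submitters' notes and the study's methods, reads were checked with FastQC 0.12.1, trimmed with Cutadapt 4.4 and Trimmomatic 0.39, aligned to mRatBN7.2 with HISAT2 2.2.1 and counted over Ensembl 111 genes with HTSeq 2.0.3. The strand setting is not given in the sources used here, so overlapping and antisense genes may share reads. The deposited values are a normalized count signal: the authors divided the counts of each table by DESeq2 size factors (DESeq2 1.40.2, R 4.3.1), and whole reads were recovered from them. The tables also hold the authors' fold changes and p-values, which were not used. Of 19 tables, 6 were used.

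Log2(normalized count + 1) was fitted with limma 3.58.1 (R 4.3.3), with empirical Bayes moderation, a mean trend and the replicate number as a block, after the edgeR 4.0.16 expression filter. The Benjamini-Hochberg adjustment covered the 14079 genes that passed the filter, and genes under 0.05 were called. Fold changes are on this log2 scale, which understates the change of low genes. The numbers were taken to pair the libraries because deviations from the group means correlated within a number (r = 0.354, 0.446 and 0.459) and not between numbers (-0.335 to 0.0428). No source says whether numbers are separate cultures, so p-values measure the spread between these libraries. Differences between effects were interaction terms over 12 libraries with the block. Alternatives changed the block, pseudocount, filter, scaling, tool (edgeR, DESeq2 1.42.0), libraries or moderation, and the edgeR and DESeq2 fits without the block were added after seeing the data. The fitting code was tested on simulated data.

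The comparison, the 31 gene lists and the tests were chosen with earlier results of these data known. Genes were named by rule: the 12 increases and 12 decreases with the smallest p, up to 3 called members of each list in each direction or otherwise the member with the smallest p, the genes named by the study, the 6 with the widest range over pairs, and the strongest differences between effects. Fos, Vgf, Egr1, Chac1, Cbs and the other genes given beyond the rule were picked after their values were seen. Promoters came from RefSeq on GRCr8, and those of Hmox1, Mt1-ps3, Arc, Kcnq3, Egr3, Nr4a3 and Atf3 are not shown. Some genes that the rule would name are not reported here.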

Additional observations from a re-analysis of the deposited data

Results flagged for a closer look

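The effect of CBD differed between 24 h and 4 h for 8 protein-coding genes by the interaction term (limma, replicate block). The differences, 24 h minus 4 h on the log2 scale, were -0.80 for Scd, -0.77 for Fam131a, 0.82 for Slc44a5, -0.71 for Kcnq3 and -0.66 for Hivep2. The effects of CBD and DMF at 24 h, each against its own vehicle, differed for 368 protein-coding genes by the same test. CBD minus DMF was -2.53 for Rgs4, -1.82 for Lpcat1, -1.17 for Fam131a and -1.54 for Rnf145 on the lower side, and 3.06 for Mt1, 2.11 for Mt2A, 0.91 for Calr and 0.89 for Pdia4 on the higher side. Dose and vehicle differ between the drugs and cannot be told apart from the drug.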

How the results depend on the processing

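All 71 genes kept their direction under every alternative run, an outcome that most runs fixed in advance. With one sign in all 3 pairs, leaving out a pair could not reverse the mean. Changes of block, filter or moderation in limma leave the log2 difference as it was. Against 71 calls, the count was 45 with no filter on low counts, 282 by DESeq2 with the replicate block, 1785 with the spread taken from all 30 libraries, 129 with robust moderation, and 42 to 1372 when a replicate was left out. With the replicate block removed, 16 genes were called by limma, 12 by edgeR and 161 by DESeq2. For the difference between times, against 8 calls, removing the block gave 0 by limma, 0 by edgeR and 17 by DESeq2, DESeq2 with the block gave 56, the 30-library spread 47, robust moderation 18, and leaving out a replicate 0 to 6. For the difference between drugs, against 368 calls, removing the block gave 56 by limma, 59 by edgeR and 236 by DESeq2, the 30-library spread gave 862, and leaving out a replicate 11 to 681. Among the named genes, 3 uncalled zinc exporters changed sign when a replicate was left out, with log2 differences from -0.272 to 0.0585 for Slc30a10, from -0.0112 to 0.0965 for Slc30a4 and from -0.0713 to 0.0628 for Slc30a5, and Slc30a4 was below 0 without replicate 2 (-0.0101) as well as without replicate 3. Of the 30 called genes named by the rule, 17 lost their call without the block. The cause of these changes was not tested. With 3 pairs, a gene that responded unevenly between pairs carries a large error.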
